A study of Danio rerio with 10 samples.

Results

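The genes described here are 10 zebrafish genes of the tissue injury response. They are the cytokine and chemokine genes *il11a*, *il11b*, *lepb*, *il1b* and *cxcl8a*, the transcription factor gene *stat3* with its feedback inhibitors *socs3a* and *socs3b*, and the matrix metalloproteinase genes *mmp9* and *mmp13a*. They were taken by symbol from a table of 32520 genes, in which *mmp13a* stands for 2 identifiers, so that the 10 genes fill 11 rows. The genes were chosen with values of these samples in view, among them the high *il11a* and *mmp9* of larvae exposed to POP125×. Their levels in POP125× and control samples are therefore given as a description. Where the calls of the fit over all genes are counted for this comparison, they are part of that description and support nothing.

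Whole larvae of the AB strain were analysed by RNA-seq at 5 dpf after exposure, from the first hours of development, to a mixture of persistent organic pollutants (POPs). The control group (3 samples, replicates 1, 2 and 4) received 0.1% DMSO, the solvent that every other group received too. The POP75× group (3 samples, replicates 2, 3 and 4) was given 75 times the human blood level of the mixture, and the POP125× group (4 samples, replicates 1 to 4) 125 times that level. Each sample is RNA from a pool of larvae, 75 by the sample labels and another number by the methods of the study. Treatments were repeated in independent experiments, but which replicate came from which experiment is not given in the sources used here, and p-values measure only the spread between these pools. The values are normalized counts, that is, reads of a gene divided by a size factor of the sample. In RNA of whole larvae, fewer cells of a type and less RNA per cell cannot be told apart.

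Interleukin 11 and leptin belong to the cytokines that signal through class I receptors and JAK kinases to the transcription factor Stat3, and in zebrafish *il11a* and *lepb* are known as genes that are switched on in injured and regenerating tissue. Stat3 in turn induces the *socs3* genes, whose products bind and inhibit the JAK kinases. Interleukin 1β and Cxcl8 start inflammation and attract neutrophils, while the gelatinase Mmp9 and the collagenase Mmp13 are secreted enzymes that cut the extracellular matrix and are made around wounds.

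The libraries held 13659239 to 20267255 reads on genes. Clustering over all tested genes, cut at a fixed number of 3 sets, divided the libraries into sets that crossed the treatments. Set 3 contained no control and consisted of POP75× replicate 2 with POP125× replicates 1 and 2. In set 1 were POP125× replicates 3 and 4, POP75× replicate 4 and control replicate 1, and in set 2 the remaining controls with POP75× replicate 3. Of 24 genes of the circadian clock, 19 lay in set 3 outside the range of the other 7 libraries, 15 below and 4 above it. Among all tested genes, 10.6% lay above that range in set 3, and the share below it was not counted. The sets were found by clustering these same values, so that genes that separate them are bound to occur. Whether clock genes did so more often than other genes was not tested. As an example, the clock repressor gene *nr1d1* had 247 to 358 normalized counts in set 3 and 1710 to 3267 elsewhere. Fits with the set as a term and without set 3 are given below, and the part of the sets in the results was not tested otherwise. Only set 1 holds both control and POP125× pools, and control replicate 1 is its only control. With the set as a term, these groups are therefore compared directly through that library alone, and the term can take up part of the treatment difference.

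**Figure D1:**
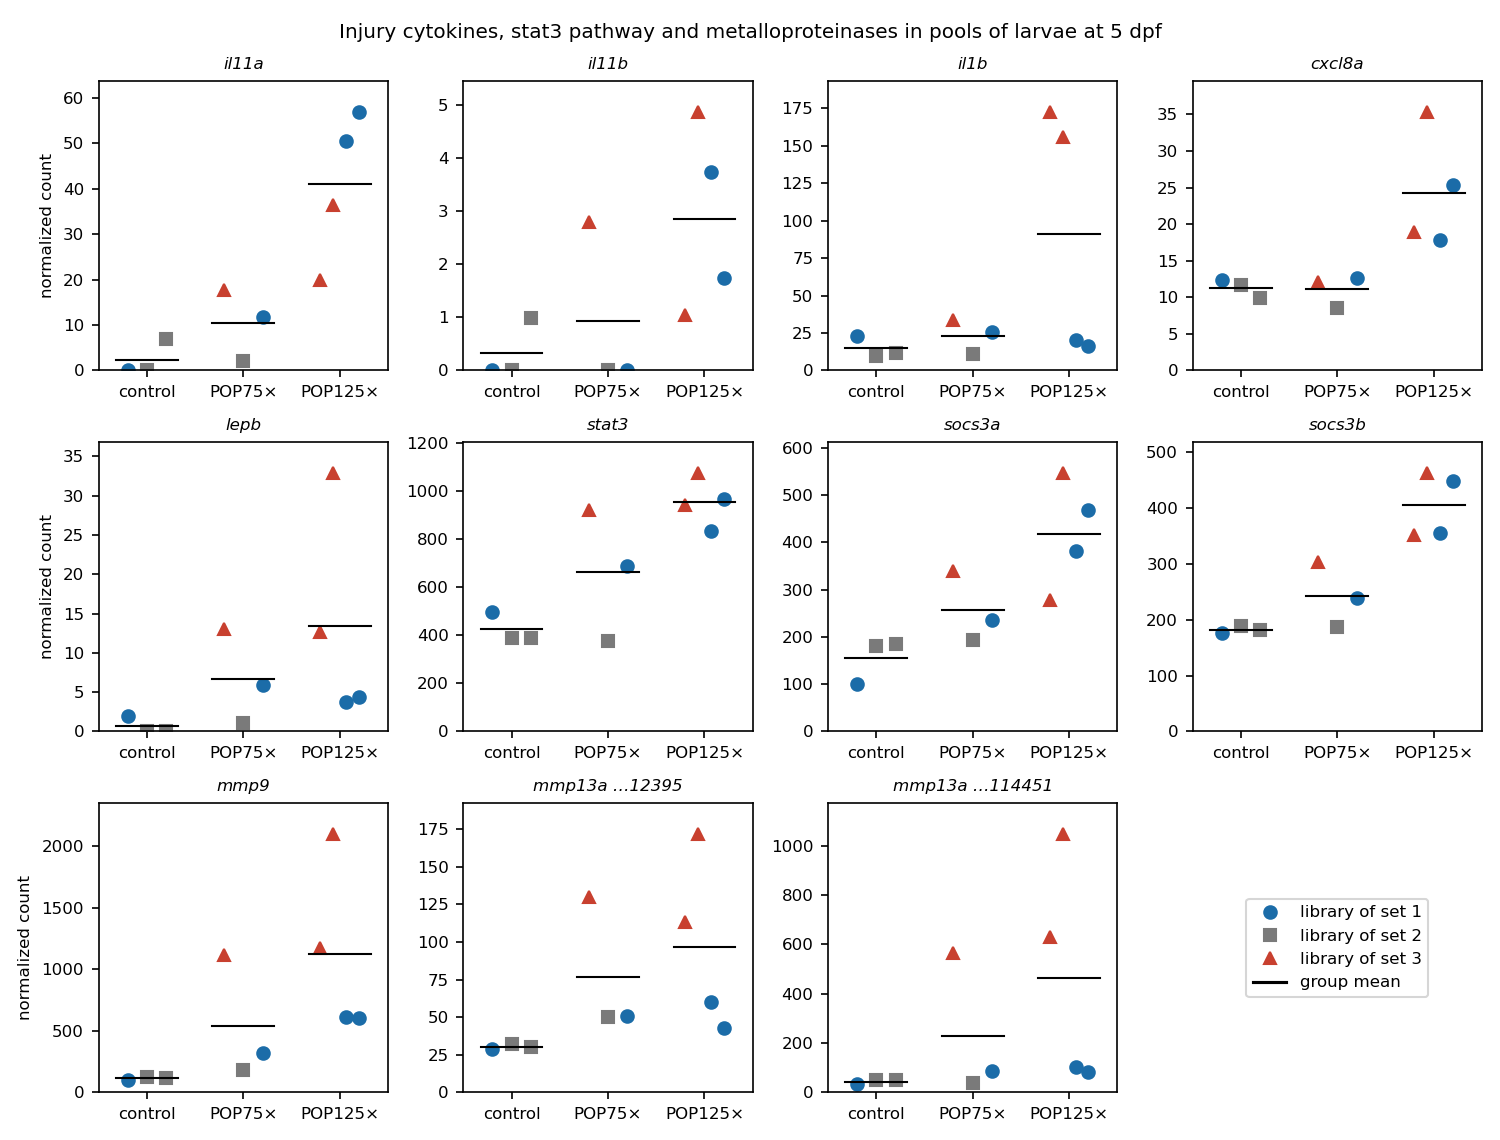
Normalized counts (y axis, a scale of its own in each panel) of the 10 genes in the 10 libraries, by treatment (x axis). Each point is 1 pool of larvae, its colour and shape show the set of libraries found by clustering, horizontal lines are group means, and *mmp13a* is shown once for each of its identifiers. The POP125× points of *stat3*, *socs3a*, *socs3b*, *il11a* and *mmp9* all lie above the control points, while the 2 high *il1b* values both belong to set 3.

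Among the cytokines, *il11a* (ENSDARG00000037859) was nearly silent in controls and present in every POP125× pool. It had 0, 0 and 6.89 normalized counts in control replicates 1, 2 and 4. The POP75× pools (replicates 2, 3 and 4) had 17.7, 2.13 and 11.7 normalized counts. The POP125× pools (replicates 1, 2, 3 and 4) had 20.0, 36.5, 50.5 and 56.7. The POP125× values overlapped neither the control nor the POP75× values, whereas 1 of the 3 POP75× pools lay within the control range. POP125× replicate 1 and POP75× replicate 2 held 19 reads each, however, so that their order rests on the size factors. The control level rests on 7 reads, all in replicate 4, against 33 reads in the POP75× and 168 in the POP125× pools. From these reads, the level in POP125× was 18.6 times that in control, with an interval of 8.82 to 46.9 that covers counting error only (95%, exact). On the log2 scale (normalized count + 1) the fitted change was 4.30 at POP125× (standard error 0.81), and 4.97 or 2.70 with 0.5 or 5 in place of 1. The gene passed the minimum for testing through 6 exposed libraries alone. The highest *il11a* values were those of POP125× replicates 3 and 4, in set 1, and not those of set 3.

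Its paralogue *il11b* (ENSDARG00000058557) was too low to judge. It had 1, 3 and 11 reads in all control, POP75× and POP125× pools, at most 4.86 normalized counts in any library, and did not reach the minimum for testing (10 normalized counts in 3 samples). All 4 POP125× pools held at least 1 read of *il11b*, from 1.05 to 4.86 normalized counts, against 0 to 0.985 in controls. POP125× replicate 1 and control replicate 4 held 1 read each, so that their order rests on the size factors. The ratio of POP125× to control was 8.51, with a counting interval of 1.24 to 366, and thus gives hardly any limit on its size.

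The leptin gene *lepb* (ENSDARG00000045548) was also close to the lower limit. It had 1.91, 0 and 0 normalized counts in control replicates 1, 2 and 4. In POP75× replicates 2, 3 and 4 it had 13.1, 1.07 and 5.86, and POP125× replicates 1 to 4 had 12.6, 32.8, 3.74 and 4.37. Every POP125× value was above every control value, but the 3 highest values of all, and the only ones over 10, were the 3 libraries of set 3. It passed the minimum for testing through these 3 libraries alone. With 2, 21 and 48 reads in the 3 groups, the ratio to control was 18.6 at POP125× (4.87 to 158, counting error only) and 10.7 at POP75× (2.61 to 93.9). The fitted log2 change of *lepb* was 2.87 (standard error 0.86) at POP125× and 1.03 when the set was added as a term, and 3.53 or 1.46 with a pseudocount of 0.5 or 5.

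Among the inflammatory signals, *il1b* (ENSDARG00000098700), which encodes interleukin 1β, was high in 2 POP125× pools and at the control level in the others. It had 22.9, 9.78 and 11.8 normalized counts in control replicates 1, 2 and 4. Values in POP75× replicates 2, 3 and 4 were 33.6, 10.7 and 25.4. The POP125× replicates 1 and 2, both of set 3, had 172 and 156, and replicates 3 and 4 had 20.6 and 16.6. The POP125× group therefore overlapped the controls, and *il1b* was the only one to do so among the 9 genes with a tested row. The log2 change was 1.93 (standard error 0.80) over all libraries. It was 0.39 without set 3 and 0.43 with the set as a term.

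The chemokine gene *cxcl8a* (ENSDARG00000104795) gave a smaller but more even difference. Control replicates 1, 2 and 4 had 12.4, 11.7 and 9.85 normalized counts. In the same order, POP75× replicates 2, 3 and 4 had 12.1, 8.52 and 12.7, and the POP125× replicates 1 to 4 had 18.9, 35.3, 17.8 and 25.3. All POP125× pools were above all other pools, and the POP75× pools lay around the controls. The log2 change was 0.99 at POP125× (standard error 0.33, and 0.70 with the set as a term) and −0.04 at POP75× (standard error 0.35). The 3 groups held 35, 34 and 95 reads of *cxcl8a*, so that its level in each pool carries a sizeable counting error.

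The transcription factor gene *stat3* (ENSDARG00000022712) was well above the lower limit in every library and higher in all POP125× pools than in any control. It had 496, 387 and 390 normalized counts in control replicates 1, 2 and 4. At POP75×, replicates 2, 3 and 4 had 921, 377 and 687, and the POP125× replicates 1 to 4 had 944, 1073, 835 and 966. The means were 954 ± 97.5 at POP125× (SD, n = 4) and 424 ± 62.2 in control (SD, n = 3). The POP75× pools were spread from below the lowest control up to the POP125× level. The log2 change was 1.17 at POP125× (standard error 0.25). It was 0.59 with the set as a term and 1.09 without set 3.

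Both genes for the Socs3 inhibitors were higher in POP125× larvae as well. For *socs3a* (ENSDARG00000025428), control replicates 1, 2 and 4 had 100.2, 180 and 186 normalized counts. Replicates 2, 3 and 4 of POP75× had 340, 193 and 235, and the POP125× replicates 1 to 4 had 277, 546, 381 and 468. All 7 exposed pools were above all 3 controls, and the POP125× and POP75× pools overlapped. For *socs3b* (ENSDARG00000026611), the controls were close to each other at 177, 189 and 182. The POP75× pools had 303, 186 and 238, and the POP125× pools had 352, 462, 356 and 449. The POP125× pools of *socs3b* overlapped no other pool, and its group means ran from 182 ± 6.09 (control, SD of 3 pools) over 243 ± 58.4 (POP75×, SD of 3 pools) to 405 ± 58.8 (POP125×, SD of 4 pools). The log2 changes at POP125× were 1.43 (standard error 0.29) for *socs3a* and 1.13 (standard error 0.18) for *socs3b*, the smallest standard error among the 10 genes, and 1.45 and 0.92 with the set as a term.

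The *mmp9* gene (ENSDARG00000042816) had even controls and widely spread exposed pools. Control replicates 1, 2 and 4 had 100.2, 128 and 116 normalized counts. The POP75× replicates 2, 3 and 4 had 1115, 185 and 319. The POP125× replicates 1 to 4 had 1176, 2093, 610 and 607. All 7 exposed pools lay above all 3 controls, and the 3 highest values belonged to the libraries of set 3, 1 of them a POP75× pool. The group means were 115 ± 14.0 (control), 540 ± 502 (POP75×) and 1121 ± 701 (POP125×), with the SD of 3, 3 and 4 pools. The log2 change at POP125× was 3.08 (standard error 0.56), 2.07 with the set as a term and 2.40 without set 3.

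Reads of *mmp13a* were reported under 2 identifiers and may be divided between them by the counting, so that neither level is certain. The ENSDARG00000012395 row had 28.6, 32.3 and 30.5 normalized counts in control replicates 1, 2 and 4. The POP75× replicates 2, 3 and 4 had 130, 50.1 and 50.8, and the POP125× replicates 1 to 4 had 113, 171, 59.8 and 42.8. All exposed pools were above all controls in this row. The ENSDARG00000114451 row had 32.4, 49.9 and 50.2 in controls. Exposed pools had 563, 39.4 and 85.0 at POP75× and 628, 1046, 103 and 83.8 at POP125×. In this row POP75× replicate 3 lay within the control range, and the 3 libraries of set 3 held the 3 highest values of both rows. The ratio of the second row to the first, which also depends on gene length, was 0.787 to 1.96 in the 7 libraries outside set 3 and 4.35, 5.54 and 6.10 in the libraries of set 3. Summed over both rows, *mmp13a* ranged from 61.1 to 82.1 in control, 89.5 to 693 in POP75× and 127 to 1217 in POP125× pools. The log2 changes at POP125× were 1.44 (standard error 0.46) and 2.64 (standard error 0.97). They were 0.78 and 0.98 with the set as a term.

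**Figure D2:**
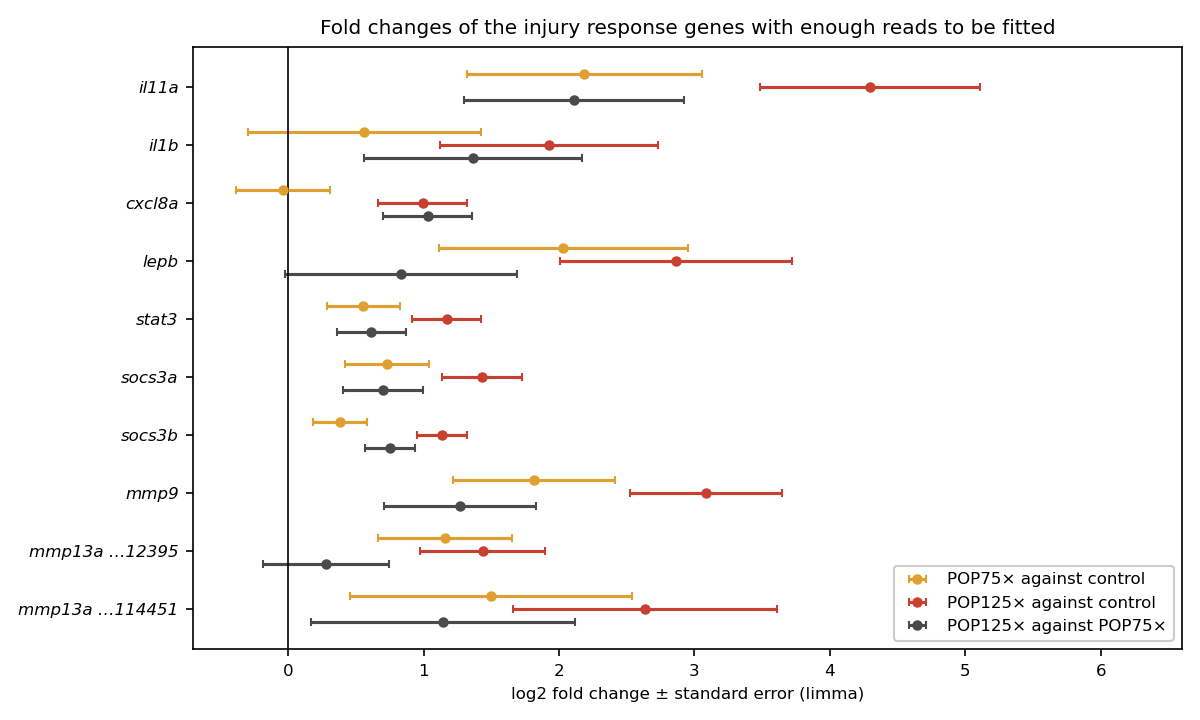
Fitted log2 fold changes (x axis) of the 10 rows that reached the minimum for testing, with bars of 1 standard error from limma over all 10 libraries. At POP125× against control the points run from 0.99 for *cxcl8a* to 4.30 for *il11a*, and each POP75× point lies to the left of the POP125× point of the same gene.

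In the limma fit over all genes, 5 of the 10 tested rows were past an adjusted p of 0.05 at POP125× against control, all higher: *il11a*, *stat3*, *socs3a*, *socs3b* and *mmp9*. Among all 21563 genes tested, 1.7% were past it, 1.35% higher and 0.348% lower. All 10 fitted log2 changes were above 0, as were 49.3% of those of all genes, and in 9 of the 10 rows every POP125× pool exceeded every control, against 12.4% of all genes. Since these genes were chosen on this comparison, nothing can be read from the difference between those shares. On the recovered reads, DESeq2 called 9 of the 10 rows, all but *cxcl8a* (7.44% of all genes), and edgeR called 3, *socs3a*, *socs3b* and *mmp9* (1.32% of all genes). With total reads as scaling, *il11a* and *mmp9* alone were called. The 5 calls depended on single libraries. Leaving out each of the 7 control and POP125× libraries in turn, that of *il11a* remained in 2 fits, without control replicate 4 and without POP125× replicate 1. That of *socs3b* remained in 2, without control replicate 1 and without POP125× replicate 1. That of *mmp9* remained in 1, without control replicate 1, and that of *socs3a* in 1, without POP125× replicate 1. The call of *stat3* was lost in all 7, although its log2 change stayed between 1.11 and 1.29. Fitted changes were between 3.80 and 5.29 for *il11a* (the latter without control replicate 4, where the other controls are at 0 and the value depends on the pseudocount), 1.14 and 1.61 for *socs3a*, 1.067 and 1.197 for *socs3b*, and 2.72 and 3.31 for *mmp9*.

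At POP75× no gene of the whole table passed the threshold in limma (0% called) or in edgeR, with 1274 genes at an unadjusted p under 0.05 (5.91% of genes), and DESeq2 called 121 (0.561%). In 3 rows, *socs3a*, *mmp9* and *mmp13a* ENSDARG00000012395, every POP75× pool lay above every control, as in 4.94% of all genes. The log2 change of *mmp9* was 1.82 (standard error 0.60, Benjamini-Hochberg adjusted p = 0.667 in limma), with all 3 pools higher. It was past the threshold in DESeq2 (adjusted p = 0.0400) and with the set as a term in limma (adjusted p = 0.0175). The fit with the set called 4.67% of all genes, against 0% without it. The sets were found by clustering these same values, so that this adjusted p supports nothing. The genes were also chosen with the controls of this comparison in view, which can favour higher values at POP75×. The log2 changes of *il11a*, *lepb* and *stat3* were 2.19 (standard error 0.87, adjusted p = 0.747), 2.03 (standard error 0.92, adjusted p = 0.839) and 0.56 (standard error 0.27, adjusted p = 0.861 from limma). Those of *socs3a* and *socs3b* were 0.73 (standard error 0.31, adjusted p = 0.802) and 0.38 (standard error 0.20, adjusted p = 0.871 from limma). The changes at POP75× varied with single libraries. Without POP75× replicate 2, which is in set 3, they were 1.08 for *mmp9*, 1.66 for *il11a* and 0.27 for *stat3*. In that fit *lepb* could not be fitted. Without POP75× replicate 3, *mmp9*, *il11a*, *stat3* and *lepb* were at 2.38, 2.95, 0.91 and 2.78. With the set as a term they were at 1.17, 2.06, 0.24 and 0.97. POP75× replicate 3, the POP75× library that clustered with 2 controls, was at or below the highest control in 7 of the 10 tested rows and in 68.3% of all genes tested, so that this share is near the background.

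Between the 2 doses no gene of the whole table passed in limma or edgeR, with 1051 genes at an unadjusted p under 0.05 (4.87% of genes), and DESeq2 called 21 (0.0974%). In 3 rows, *il11a*, *cxcl8a* and *socs3b*, every POP125× pool was above every POP75× pool, as in 2.95% of all genes. The choice of genes that are high at POP125× favours this order, so that nothing can be read from a comparison with that share. For *il11a* the closest pools of the 2 doses held 19 reads each, and their order rests on the size factors. The log2 differences were 2.11 for *il11a* (standard error 0.81), 1.03 for *cxcl8a* (standard error 0.33) and 0.75 for *socs3b* (standard error 0.18), each with an adjusted p of 0.885 from limma. That of *mmp9* was 1.27 (standard error 0.56) and that of *mmp13a* ENSDARG00000012395 0.28 (standard error 0.46, adjusted p = 0.918 from limma).

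The 10 genes fell into different patterns over the sets of libraries. In 5 of the 10 tested rows, *il1b*, *lepb*, *mmp9* and both of *mmp13a*, the 3 libraries of set 3 held the 3 highest values, as they did in 10.6% of all tested genes. For *lepb* this was fixed by the minimum for testing, which it reached through those libraries alone, and without it the count is 4 of 9. In *il11a*, *cxcl8a*, *stat3*, *socs3a* and *socs3b* the libraries of set 3 did not hold the 3 highest values. Set 3 includes POP125× replicates 1 and 2 and no control, so that the choice of genes high at POP125× favours high values there. Nothing can therefore be read from the difference to the share of all genes. Within set 1, which holds 1 control, 1 POP75× and 2 POP125× pools and hence allows no test, 6 rows were lowest in the control, higher in the POP75× pool and highest in both POP125× pools, as were 19.9% of all genes tested. The choice of genes that are high at POP125× favours this order. These were *il11a*, *cxcl8a*, *stat3*, *socs3a*, *socs3b* and *mmp9*, with 100.2, 319, 610 and 607 normalized counts of *mmp9* as an example. In the same set *il1b* was at 22.9, 25.4, 20.6 and 16.6, without such an order.

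**Figure D3:**
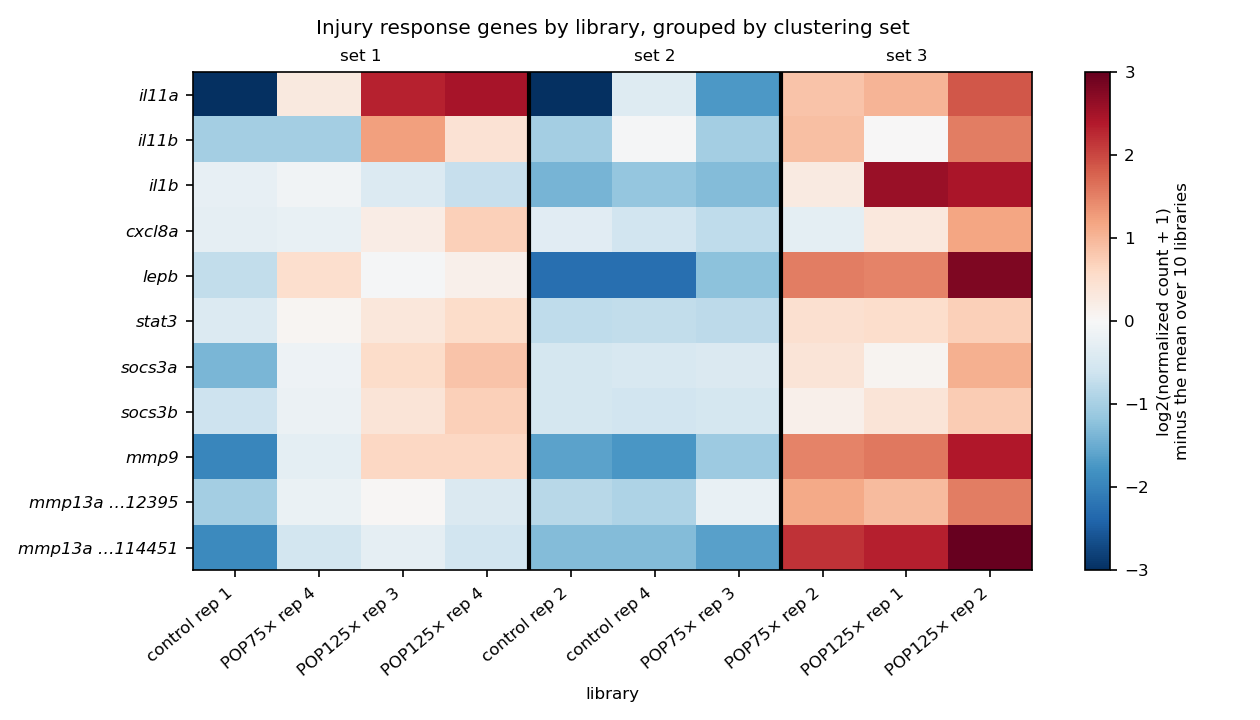
Log2 values of each gene (normalized count + 1) minus its own mean over the 10 libraries (colour, with values beyond −3 or 3 in the end colours), with libraries (columns) ordered by clustering set and genes in rows. The 3 columns of set 3 are the reddest of their row for *il1b*, *lepb*, *mmp9* and both rows of *mmp13a*, while *il11a* is highest in POP125× replicates 3 and 4 of set 1.

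With the set as a term, the same 5 genes were past the threshold at POP125×, where 12.6% of all genes were, and nothing can be read from this, since the genes were chosen on the same comparison. The log2 changes were then 4.04 for *il11a*, 0.59 for *stat3*, 1.45 for *socs3a*, 0.92 for *socs3b* and 2.07 for *mmp9*. Without the 3 libraries of set 3, a fit chosen after seeing the data, *il11a* was at 4.78, *stat3* at 1.09, *socs3a* at 1.49, *socs3b* at 1.13 and *mmp9* at 2.40. In that fit of 7 libraries *mmp9* alone remained past the threshold, where 0.558% of all genes were. Against the fit of all libraries, the log2 changes of *il11a*, *cxcl8a*, *socs3a* and *socs3b* thus moved by less than 0.5 in both fits, and those of *il1b*, *lepb*, *mmp9* and *mmp13a* were lower by more than 0.5 wherever they were fitted. That of *stat3* was lower by more than 0.5 with the set as a term but not without set 3. Control and POP125× pools meet only in set 1, with control replicate 1 alone. A small move with the set as a term is therefore no sign of a firm value. For *socs3a* that library was the lowest control (100.2 against 180 and 186).

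**Figure D4:**
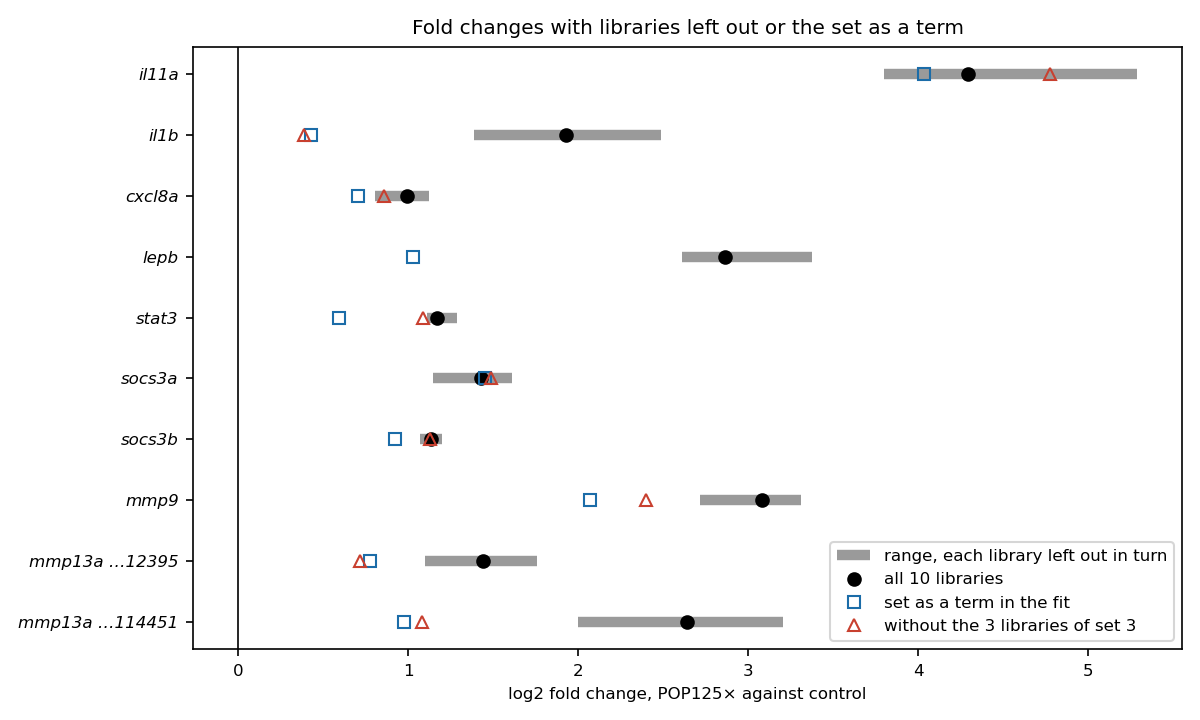
Log2 fold changes at POP125× against control (x axis) of each tested row over all 10 libraries (filled circles), over the fits that each left out 1 library (grey bars, from the lowest to the highest), with the set as a term (squares) and without set 3 (triangles, not fitted for *lepb*). Every point lies above 0, with *il1b* falling from 1.93 to 0.39 and *il11a* staying between 3.80 and 5.29.

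The receptors and kinases through which these cytokines act were looked up by their role. The interleukin 11 receptor gene *il11ra* had 96.9 ± 33.7 normalized counts (SD, n = 3) in control and 184 ± 35.9 (SD, n = 4) in POP125× pools. Its log2 difference of 0.95 was not past the threshold (adjusted p = 0.147 in limma). The shared signalling receptor gp130, gene *il6st*, had 884 ± 48.1 and 1827 ± 280.2 (SD, n = 3 and n = 4; log2 difference 1.04, adjusted p = 0.100 from limma). The leptin receptor gene *lepr* had 300.2 and 504 (log2 difference 0.80, adjusted p = 0.157 from limma). All receptor values were thus higher on average at POP125×, and none was called. With the set as a term, the differences were 0.14 for *il11ra*, 0.40 for *il6st* and 0.20 for *lepr*. The kinase genes *jak1*, *jak2a* and *tyk2* differed by 0.22, −0.38 and 0.75, none past the threshold, and with the set as a term *jak2a* (0.25) and *tyk2* (−0.085) changed sign. The related factor *stat1a* differed by 0.67. The *stat1b* gene had 1.96 to 5.73 normalized counts in control and 36.5 to 147 in POP125× pools (log2 difference 3.81, adjusted p = 0.0926 from limma). With the set as a term, *stat1a* differed by 0.15 and *stat1b* by 1.35. The ligand genes *il6* and *lepa* and the cytokine gene *tnfa* were under the minimum for testing.

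Of the other metalloproteinases and their inhibitors, *mmp2*, *mmp14a* and *mmp14b* differed from control by −0.19, −0.15 and 0.40 on the log2 scale at POP125×, none past the threshold, and *mmp14b* changed sign with the set as a term (−0.088). The inhibitor gene *timp2b* had 150 ± 51.6 normalized counts (SD, n = 3) in control and 488 ± 258 (SD, n = 4) in POP125× pools, an adjusted p of 0.119 from limma. Its log2 difference was 1.62, and 0.39 with the set as a term. That of *timp2a* was 0.15, and −0.38 with the set as a term. The *mmp13b* gene was under the minimum for testing. Among the inflammatory partners, the chemokine gene *cxcl8b.1* differed by 1.51 (adjusted p = 0.129) and *ptgs2b*, which encodes a cyclooxygenase of prostaglandin synthesis, by 2.31 (adjusted p = 0.127 from limma). The *ptgs2b* values were 71.0 ± 2.81 (SD, n = 3) in control and 454 ± 342 (SD, n = 4) in POP125× pools. With the set as a term, the differences were 1.34 for *cxcl8b.1* and 0.92 for *ptgs2b*. None of these partners was called.

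Wider lists were written for the same processes, without the 10 genes, and are described by counts and medians at POP125× against control. These lists were chosen with earlier results of these data known. Nothing can therefore be read from a share or median above that of all genes. The median log2 change of all genes tested was −0.00822, and 1.35% of them rose. In the list of the IL-6 family and JAK-STAT signalling, 1 of 39 genes rose (2.56%) and none fell, with a median of 0.29. The gene that rose was *socs2*, another inhibitor of cytokine signalling (0.93, standard error 0.20, adjusted p = 0.0425 from limma). Of 21 Stat3 target and acute phase genes, 2 rose (9.52%) and none fell (median 0.375). They were the transcription factor gene *cebpd* (1.45, standard error 0.27, adjusted p = 0.0252) and the anti-apoptotic *mcl1b* (0.99, standard error 0.18, adjusted p = 0.0224, both from limma). Of 42 inflammatory cytokine and NF-κB genes, the chemokine gene *cxcl18b* alone rose (2.38%, median 0.346). It went from 13.7 to 25.8 normalized counts in controls to 72.5 to 127 in POP125× pools (2.50, standard error 0.51, adjusted p = 0.0365 from limma).

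Of 33 metalloproteinase and inhibitor genes, *adamts8a*, a secreted protease gene, rose from 84.5 ± 15.4 normalized counts (SD, n = 3) to 327 ± 88.7 (SD, n = 4) and none fell (3.03% rose, median 0.154). The shares of the JAK-STAT, cytokine and metalloproteinase lists are thus near that of all genes. Its log2 change was 1.92 (standard error 0.30, adjusted p = 0.0160 from limma). The 30 wound and regeneration genes that were tested had a median of 0.394. In the immediate early genes, which respond first to many stimuli, 4 of 11 rose (36.4%) and none fell (median 1.41), *fosl1a*, *fosb*, *junba* and *atf3*. Like the other lists, this one was chosen with earlier results of these data known. The study also names *fosl1a*, *fosb* and *junba* among its most induced genes. Nothing can therefore be read from the share of this list. The calls in these lists also depended on single libraries. With each of the 7 control and POP125× libraries left out in turn, those of *socs2*, *cebpd*, *mcl1b*, *adamts8a*, *junba* and *atf3* remained without control replicate 1 and without POP125× replicate 1. Those of *cxcl18b* and *fosl1a* remained without control replicate 1 alone. The call of *fosb* remained without control replicate 1 or 2 or POP125× replicate 1. At POP75× no gene of any list was called.

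**Figure D5:**
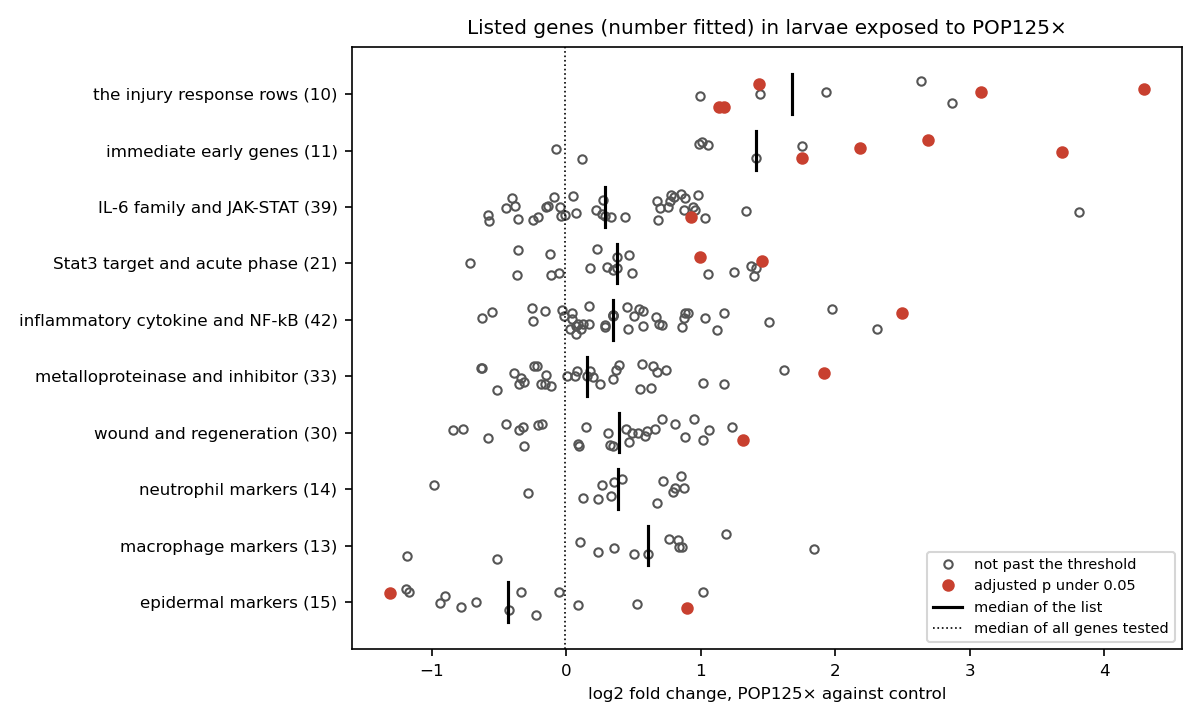
Log2 fold changes at POP125× against control (x axis) of the genes of each list that were fitted (number in brackets), with filled circles for an adjusted p under 0.05, a bar at the median of the list and a dotted line at the median of all genes. The medians are 1.68 for the 10 rows described here, which were chosen on this comparison, and 0.154 to 0.394 for the 5 lists of their pathways. Those lists were also chosen with earlier results of these data known.

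Cell types known as sources of such proteins were followed by marker genes, in lists also chosen with earlier results of these data known. Of 16 neutrophil markers, 14 were tested and none of these was called at POP125×. In 12 of the 14 the mean was higher at POP125× than in control, and in 6 every POP125× pool was above every control. Of all genes tested, 49.3% had a fitted change above 0 and 12.4% had every POP125× pool above every control. The share with every POP125× pool below every control was not counted. The fitted log2 changes at POP125× were −0.28 for *mpx* and −0.98 for *cpa5*, and above 0 for the other 12. The chemokine receptor genes *cxcr1* and *cxcr2*, carried by neutrophils, were at 0 in every control and were not tested. In exposed pools *cxcr1* had 0.873 to 4.68 normalized counts at POP125× and 0 to 13.1 at POP75×. The lowest *cxcr2* value was 0 at both doses. Both receptor genes were thus too low to judge. The lowest p belonged to *srgn* (0.72, adjusted p = 0.114 in limma). The 16 markers summed to 5693 to 25108 normalized counts in control, 7187 to 36257 in POP75× and 5891 to 14707 in POP125× pools. Most of this sum was *cpa5*, a carboxypeptidase gene at 4473 to 23735.5 normalized counts in control, so that the sum says little about neutrophils. Without *cpa5*, the markers reached 1221 to 1428 normalized counts in control, 1394 to 2511 in POP75× and 1647 to 1830 in POP125× pools. Of 16 macrophage markers, 13 were tested and none of these was called either. The mean of 10 was higher at POP125×, and in 8 every POP125× pool was above every control. In *c1qb* every POP125× pool was below every control, at 3.74 to 10.5 against 12.8 to 16.6 normalized counts. Fitted log2 changes were −1.18 for *c1qb* and −0.51 for *grn1*, and above 0 for the other tested markers. The lowest p belonged to *irf8* (0.83, adjusted p = 0.0846 in limma). The macrophage markers summed to 14121 to 19440 normalized counts in control, 18647 to 28742 in POP75× and 24857 to 30061 in POP125× pools. Without *apoeb*, an apolipoprotein gene, the sum was 1044 to 1248 in control, 1189 to 2147 in POP75× and 1576 to 1916 in POP125× pools. Without these single genes, both sums were higher in all POP125× pools than in any control and highest in POP75× replicate 2 of set 3. The genes to leave out were chosen after their own values had been seen, so that this order supports nothing. With *cpa5*, the neutrophil sums of POP125× and control pools overlapped. The 15 epidermal markers summed to 190142 to 259167 normalized counts in control, 136023 to 288926 in POP75× and 110734 to 146853 in POP125× pools. Every POP125× sum was thus below every control sum, and the highest sum was that of a POP75× pool. Most of this sum came from *krt4*, *krt5* and *cyt1*, at up to 95700, 60252 and 37748 normalized counts in controls. A sum without them was not made. In 4 of the 15 markers the mean was higher at POP125× than in control. In 3 every POP125× pool was above every control, as in 12.4% of all genes tested. In *krt4*, *krt5*, *cyt1*, *cyt1l* and *icn2* every POP125× pool was below every control, an order that was not counted over all genes. The median log2 change of the 15 was −0.429. Of the 15, *agr1* rose by 0.90 and *cyt1l* fell by 1.31 on the log2 scale. Both calls were lost with any of the 7 libraries left out. None of 21 larval tissue markers, which share *krt4* with the epidermal list (median −0.219), and none of 24 clock genes (median −0.441) was called. The part of these cells in the values of *il1b*, *mmp9* and the other genes was not tested.

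For the rows that varied most over the libraries, the genes most like them were found by the root mean square difference of centred log2 values over the 10 samples. Nearest to *mmp9* were *zgc:153932* (0.298), *psme4a* (0.328) and *slc16a9a* (0.37). Nearest to *mmp13a* ENSDARG00000114451 was *ptgs2b* (0.424), and nearest to *lepb* were *urgcp* (0.435) and *adgrf8* (0.468). These distances compare with standard deviations of 1.57, 1.82 and 1.67 for the 3 rows themselves. For *il1b* the nearest genes were *plek2* (0.548), *pla2g3* (0.572) and *mxa* (0.58). The pattern of *il11a* was less closely matched, the nearest being *si:dkey-23i12.7* (0.905) and *uts2d* (0.911) with a standard deviation of 2.18 for *il11a*, at few reads in controls. All these genes share the same 10 libraries and hence the same sets.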

How the data were processed

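Pools of whole larvae at 5 dpf were analysed. The authors mapped stranded single-end reads to GRCz11, counted them per gene and scaled every sample by a single size factor from DESeq2. The deposited values are this signal, called normalized count here. Every value (100%, tolerance 0.01 of a read) was a whole multiple of the value of 1 read, so reads were recovered. The deposited tables of the authors' comparisons (means, fold changes, p-values) were not used.

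The minimum for testing, 10 normalized counts in 3 or more samples, left 21563 of 32520 genes. They were fitted on log2(normalized count + 1) by limma 3.58.1 (R 4.3.3), with an intensity trend, all 10 samples and the condition as the only term. A call is a Benjamini-Hochberg adjusted p under 0.05 over all genes tested. Fold changes of low genes on this scale depend on the pseudocount. Alternatives were DESeq2 1.42.0 and edgeR 4.0.16 on recovered reads, other scalings, pseudocounts of 0.5 and 5, other filters, 2 groups in the fit, no trend, the replicate number as a block, the sample set as a term and each library left out. The sets came from average-linkage clustering of the log2 values of all tested genes, cut at a fixed number of 3. The fit without set 3 was chosen after seeing the data. The script was tested on simulated data. Plots were made in Python 3.11.15 (matplotlib 3.10.9).

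The 10 genes and the lists were chosen with earlier results of these data known. From each list, up to 5 called genes with the largest change were named or, with none called, up to 3 with the lowest p were eligible. Receptors, kinases, proteases and other partners were named for their role after the values of the 10 genes had been seen, and the immune and clock genes named as markers, and the genes at which the sums were trimmed, after their own values had been seen. Sequences and coordinates are left out because the annotation used here was of another assembly. One gene of the lists is not reported here.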

Additional observations from a re-analysis of the deposited data

How the results depend on the processing

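The log2 fold changes of the 10 tested rows at POP125× against control were above 0 in all 125 values from alternatives other than single left-out libraries and in all 68 with 1 library left out. These are refits of the same libraries, and the genes were chosen on this comparison. Nothing can therefore be read from these signs. With the minimum in all samples, *il11a*, *lepb*, *il1b* and *cxcl8a* could not be fitted, nor could *lepb* without set 3 or without POP125× replicate 1 or 2. The counts of calls moved more, and the cause was not tested. At POP125×, 366 genes and 5 of the 10 rows were past the threshold. These counts were 1604 and 9 with DESeq2, 188 and 2 with total reads as scaling, 118 and 1 without set 3, and the first was 2707 with the set as a term and 1534 with 2 groups in the fit. Of the rows, 3 were past it with edgeR and 3 without the trend. With 1 library left out, 38 to 476 genes and 0 to 3 rows were past it. Those fits also had fewer samples, and the part of this in the change was not tested. At POP75×, 121 genes and 1 row passed with DESeq2, 1008 and 1 with the set as a term, 1 gene without set 3, and 0 to 5 with 1 library left out. Between the doses, 21 genes passed with DESeq2, 61 with the set as a term, 1 without the trend, 1 with no filter and 0 to 2 with 1 library left out. With the set as a term, the log2 difference at POP125× changed sign for *mmp14b* (−0.088), *tnfb* (−0.068), *tyk2* (−0.085), *timp2a* (−0.38) and *jak2a* (0.25), and at POP75× for *il1b* (−0.36). Without set 3, *timp2a* was at −0.058. With 1 library left out, *cxcl8a* ranged from −0.14 to 0.13 at POP75×, and *mmp13a* ENSDARG00000012395 from −0.060 to 0.73 between the doses.

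By the rule that every pair correlates above 0.1, the replicate numbers did not pair the samples. The correlation of same-numbered samples was 0.03 to 0.16 over 3 pairs for POP125× and control and −0.41 to −0.25 over 2 pairs for POP75× and control, and 0.06 to 0.49 over 3 pairs for POP125× and POP75×. Samples closest to their own number were 3 of 6 in the first comparison, 0 of 4 in the second and 1 of 6 in the third. The replicate block gave 1164 calls (5.4% of genes) and 9 of the 10 rows at POP125×, and 0.071 for *cxcl8a* at POP75×. Depth limits *il11b*, *lepb* and the controls of *il11a*, where a lower level was not detectable.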
